A study of Mus musculus with 23 samples.

Results

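Tetraspanin genes encode small membrane proteins with 4 transmembrane segments, and 9 of them were followed through every library of the study. The 9 genes, Cd9, Cd63, Cd81, Cd82, Cd151, Tspan3, Tspan4, Tspan6 and Tspan31, were taken by name from a table of 23284 genes, which held 31 tetraspanin genes in all. RNA-seq was done on 16 single mouse mesenchymal stem cells (mMSC1 to mMSC16), 5 single HL-1 cardiomyocytes (HL1cm1 to HL1cm5) and 1 population control of each type (mMSC-PC and HL1cm-PC), 23 libraries in all. The mMSCs were bought, came from bone marrow of 3-month-old male C57BL mice by the study's methods, and were grown at passages 6 to 11 in alpha-MEM with 10% serum. HL-1 is an established atrial cardiomyocyte line, derived from atrial tumours of mice that carried a simian virus large T antigen transgene under the atrial natriuretic factor promoter, and kept here at passages 70 to 85 in Claycomb medium with 10% serum and 0.1 mM norepinephrine. The strain label of all libraries was C57BL/6J, no other genotype was given, and single cells were caught on chips for diameters of 17 to 25 micrometres. The HL1cm alone were stained with a green cytoplasmic dye before capture in the same device. Medium, norepinephrine, dye, passage and cell type differed together and cannot be told apart. No separate cultures or animals were named, so each cell type counted as 1 sample, differences between the types have no replicate check, and no test was made.

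Tetraspanins gather in tetraspanin-enriched microdomains, where each holds particular partners such as integrins, immunoglobulin-family EWI proteins and metalloproteases. Cd63 lies mostly in late endosomes and lysosomes, while Cd9 and Cd81 lie mostly at the plasma membrane, and these 3 proteins are widely used as markers of extracellular vesicles. The study listed Cd9 and Cd81 among its multipotency genes and Cd151 among its chondrogenic genes, whereas the other 6 were in neither list.

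In mm10 the 9 genes lie on 6 chromosomes. Cd81 (chr7:143052739-143067934, plus strand), Cd151 (chr7:141467392-141471473, plus) and Tspan4 (chr7:141475240-141493427, plus) share chromosome 7, the last 2 being neighbours. Cd63 (chr10:128900989-128912822, plus) and Tspan31 (chr10:127067280-127070264, minus) are on chromosome 10. The others are Cd9 (chr6:125460266-125494791, minus), Cd82 (chr2:93419111-93463140, minus), Tspan3 (chr9:56131725-56165477, minus) and Tspan6 (chrX:133891068-133898429, minus). The promoters of 3 genes are shown from RefSeq (GRCm38.p6, the assembly of mm10) because Cd9 and Tspan31 were higher in the mMSCs and Cd81 in the HL1cm. That of Cd63 is not shown, since its RefSeq start lies inside the span given above, which has several annotated starts. Each runs from 250 bases before to 50 after the start, on the gene's own strand, with GGGCGG or CCAAT on either strand in capitals (CCAAT reads ATTGG on the other strand).
Cd9, chr6:125494711-125495010, minus strand: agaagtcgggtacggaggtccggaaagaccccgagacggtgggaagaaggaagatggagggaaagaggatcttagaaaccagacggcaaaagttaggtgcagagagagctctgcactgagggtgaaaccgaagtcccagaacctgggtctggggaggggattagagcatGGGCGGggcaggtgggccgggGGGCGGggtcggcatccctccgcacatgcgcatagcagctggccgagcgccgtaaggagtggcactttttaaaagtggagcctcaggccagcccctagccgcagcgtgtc
Cd81, chr7:143052500-143052799, plus strand: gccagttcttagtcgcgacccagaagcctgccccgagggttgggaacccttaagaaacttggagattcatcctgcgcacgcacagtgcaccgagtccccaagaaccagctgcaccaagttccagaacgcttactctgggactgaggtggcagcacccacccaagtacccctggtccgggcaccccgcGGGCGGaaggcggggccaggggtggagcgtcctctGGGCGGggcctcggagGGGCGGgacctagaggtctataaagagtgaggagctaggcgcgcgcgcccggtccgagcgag
Tspan31, chr10:127070212-127070511, minus strand: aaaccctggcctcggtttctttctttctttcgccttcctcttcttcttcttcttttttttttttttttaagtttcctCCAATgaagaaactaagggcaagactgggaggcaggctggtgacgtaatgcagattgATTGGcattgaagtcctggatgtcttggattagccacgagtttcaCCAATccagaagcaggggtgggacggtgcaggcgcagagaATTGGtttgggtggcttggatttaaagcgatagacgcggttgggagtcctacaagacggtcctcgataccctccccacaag
GGGCGG stood 2 times in the Cd9 window and 3 times in the Cd81 window, and in 35.7% of 32851 mouse promoter windows of 300 bases. CCAAT stood 4 times in the Tspan31 window, and in 37.4% of all windows. The windows held 18 (Cd9), 23 (Cd81) and 11 CpG (Tspan31), against a median of 7 over all windows. TATAAA, searched on both strands, was in the Cd81 window and in 13.6% of all windows, while CACGTG and TGACTCA (7.15% and 5.20% of all windows) were in none of the 3. These are matches of letters only.

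Levels are FPKM, fragment numbers divided by exon length and by the mapped fragments of the library, which are scaled for gene length and so may be compared between genes. The table held no counts, and the read totals that the study reports for its cells were not used. The depth behind a value was therefore not taken into account. Genes detected, at a level of at least 1 FPKM, numbered 5178 to 7241 in the mMSCs, with mMSC9 and mMSC15 the lowest, 6428 to 7010 in the HL1cm, 9625 in mMSC-PC and 9881 in HL1cm-PC. The cell types matched their labels. Summed FPKM of 8 mesenchymal markers were 712 to 5173 in the mMSCs and 4.22 to 100.2 in the HL1cm, with Ly6a, Col1a2, Pdgfrb, Postn and Thy1 at 0 in all HL1cm and Thy1 at 0 in all mMSCs as well, with Vcam1 the one mesenchymal marker higher in the HL1cm, while 8 HL-1 markers summed to 0 to 65.4 in the mMSCs and 32770 to 59950 in the HL1cm. Of 9 haematopoietic markers, Ptprc, Cd37, Lyz2, Emr1 and Aif1 were at 0 in all mMSCs, and the list summed to 0 to 48.1 there and to at most 1.10 in the HL1cm. Of the others, Cd68 was above 0 in mMSC11 alone, at 48.1 FPKM, Csf1r was above 0 in 8 mMSCs, at up to 32.6 FPKM, and Cd53, the tetraspanin of leukocytes, in 4, at up to 11.4. Endothelial markers summed to at most 10.8 and platelet markers to 0 in the mMSCs, and to at most 13.8 and 1.63 in the HL1cm.

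Differences between the types are differences of mean log2 FPKM, with values under 1 FPKM set to 1, and a gene was counted as higher or lower at 2-fold or more. Of the 9 tetraspanins, 4 were higher in the mMSCs (Cd9, Cd63, Tspan6 and Tspan31), against 21.4% of the 11850 genes compared, and 1 was lower (Cd81), against 21.6%. For Cd9 and Cd63 the single cells of the types did not overlap, as for 3.96% of all genes compared. The same 4 genes were at least 2-fold higher in mMSC-PC than in HL1cm-PC, against 20.5% of 11509 genes, and none was lower, against 39.0%. At equal Gapdh Tspan31 fell short of 2-fold between the controls, at 0.70, and 3 of the 9 genes were lower. The median difference over the 9 genes was 0.70 on the log2 scale for single cells and 0.41 for the population controls, beside 0.08 and -0.54 over all genes.

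**Figure D1:**
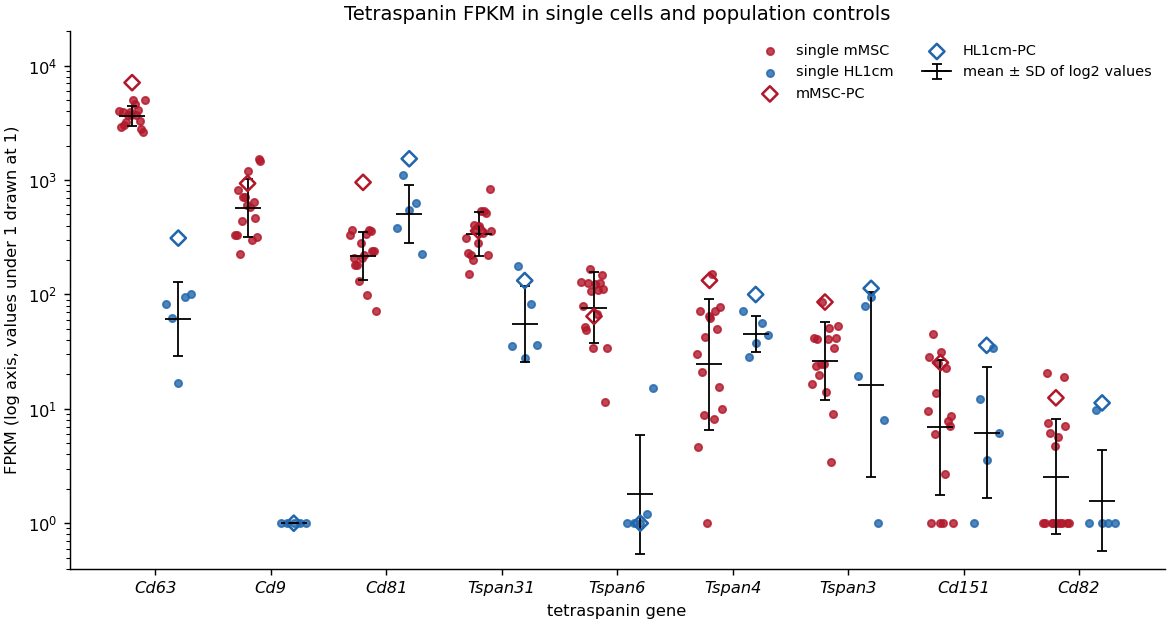
Level of each tetraspanin in every library, in FPKM on a log axis with values under 1 drawn at 1, with single cells as points (red mMSC, blue HL1cm), population controls as open diamonds and black bars at the mean ± SD of the log2 values. All 16 mMSCs lie above all 5 HL1cm for Cd63 and Cd9, and the HL1cm lie mostly higher for Cd81.

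Cd63, which carries cargo within endosomes and was the highest tetraspanin of the mMSCs, ran from 2641 FPKM in mMSC15 through a median of 3706 to 5034 in mMSC9. Every mMSC was within 1.91-fold of every other in FPKM as deposited. By level, Cd63 took place 11 to 29 among all genes of a cell. In the HL1cm the levels were 83.2, 62.8, 16.7, 94.3 and 100.0 FPKM, so that HL1cm3 stood below the other 4, and the place was 747 to 3099. The groups were far apart, by 5.91 on the log2 scale, or 60.2-fold. Leaving out HL1cm3 gave 5.45. The population controls held 7107 FPKM for mMSC-PC and 311 for HL1cm-PC, 22.9-fold apart.

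Cd9, a plasma-membrane tetraspanin known for its part in cell fusion and adhesion, was present in all 16 mMSCs, at 224 FPKM in mMSC4, a median of 596 and 1543 in mMSC15. Each of the 5 HL1cm was listed at 0, as was HL1cm-PC, while mMSC-PC held 935 FPKM. No fold is given against a group at 0. The observed 0 of 5 HL1cm allows a share of cells with a listed value of up to 52.2%. This exact 95% interval covers the counting of cells as independent draws only. Since depth was not taken into account, the interval sets no limit on cells that express Cd9. Cells were more unequal for Cd9 than for Cd63, with 6.90-fold between the highest and the lowest mMSC. The highest levels, in mMSC15, mMSC16 and mMSC9, included both cells with the fewest genes detected, and over the 16 cells Cd9 and the number of genes detected had a Pearson r of -0.57. The part of library depth in the Cd9 levels was not tested.

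Cd81, a plasma-membrane tetraspanin known as a receptor used by hepatitis C virus, went the other way. Its levels in the mMSCs were 71.4 FPKM in mMSC16, a median of 230 and 368 in mMSC12. The HL1cm had 383, 1103, 542, 630 and 227 FPKM, so 4 of the 5 were above every mMSC and HL1cm5 was within their range. The mean was 2.32-fold lower in the mMSCs, a log2 difference of -1.21. That difference was -0.88, short of 2-fold, when all libraries were scaled to the same sum of FPKM or to the same Gapdh, and -0.93 without HL1cm2, but the sign held in all 14 alternatives. In the population controls Cd81 was 955 FPKM in mMSC-PC and 1536 in HL1cm-PC, which was also short of 2-fold. No type lacked Cd81, in contrast to Cd9.

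Because FPKM is per length, the 3 vesicle-marker transcripts can be set against each other within a cell. Cd9 over Cd81 was 0.905 in mMSC2, a median of 2.45 and 20.4 in mMSC16, and was above 1 in 14 of 16 cells, whereas in mMSC-PC it was 0.979. Cd63 over Cd81 was 7.90 to 69.7 in the mMSCs with a median of 15.2, and 0.0308 to 0.440 in the HL1cm. Cd63 exceeded Cd81 in every mMSC and was below it in every HL1cm. Cd63 over Cd9 ran from 1.71 in mMSC15 to 13.4 in mMSC4, with a median of 6.73.

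Tspan31, a tetraspanin first found through its amplification in sarcomas next to Cdk4, was the third highest in the mMSCs. It had 150 FPKM in mMSC3, a median of 352 and 831 in mMSC15, with 359 in mMSC-PC. The HL1cm held 35.3, 176, 28.0, 82.7 and 36.3 FPKM and HL1cm-PC 132. Only HL1cm2 reached the range of the mMSCs, and the mean was 6.08-fold higher in the mMSCs, or 2.60 on the log2 scale. Of the 2193 exonic bases of Tspan31 in GENCODE M21, 641 (29.2%) also belong to Cdk4 on the opposite strand. The use of strand was not stated, so reads from the 2 genes cannot be told apart there. Cdk4 itself was 102 to 472 FPKM in the mMSCs and 15.1 to 258 in the HL1cm, 1.30 higher in the mMSCs on the log2 scale. Over the 16 mMSCs Tspan31 had an r of -0.50 with Cdk4 and of -0.55 with the number of genes detected.

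Tspan6, known for a role in the degradation and release of endosomal cargo, was present in all mMSCs, with 11.6 FPKM in mMSC15, a median of 109 and 167 in mMSC6. The HL1cm had 0, 0, 0, 1.20 and 15.2 FPKM, HL1cm-PC 0 and mMSC-PC 64.4. The groups met only because HL1cm5 was above mMSC15. The log2 difference was 5.43 with a limit of 1 FPKM, but 2.82 with a limit of 10 and 7.42 with one of 0.1, since most HL1cm values were at 0. HL1cm5 also held 20.2 FPKM of Ifitm3 and 7.61 of Col1a1, both listed at 0 in the other 4 HL1cm and high in the mMSCs, while Ly6a, Cd9 and Postn were at 0 in it. Whether RNA of another cell entered that library was not tested.

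Tspan4 and Tspan3 were at lower levels in both types and did not reach 2-fold. Tspan4, the tetraspanin that marks migrasomes left behind by moving cells, was 0 in mMSC7, a median of 36.1 and 152 in mMSC10, with 133 in mMSC-PC. In the HL1cm it was 71.6, 28.5, 37.6, 56.3 and 43.8 FPKM, and 99.9 in HL1cm-PC. The HL1cm thus lay in a narrow band inside the wide range of the mMSCs, and the log2 difference was -0.89. It passed 2-fold in 4 of 14 alternatives, at -1.17 under median ratio scaling, -1.10 without mMSC9 and mMSC15, -1.09 with a limit of 0.1 FPKM and -1.05 without HL1cm2, and was -0.14 between the log2 of mean FPKM. Of its 2178 exonic bases, 292 (13.4%) are shared with Chid1, which was at 3.32 to 18.3 FPKM in the mMSCs.

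Tspan3, a widely expressed tetraspanin, ran from 3.46 FPKM in mMSC12 through a median of 29.4 to 86.7 in mMSC7, a 25.1-fold range. It was 19.2, 78.6, 94.2, 0 and 7.94 in the HL1cm, 85.8 in mMSC-PC and 113 in HL1cm-PC. The groups overlapped over their whole ranges. The log2 difference of 0.68 turned to -0.32 without HL1cm4, the cell with none, so no direction can be given.

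Cd151 and Cd82 were low in both types. Cd151, which binds laminin-binding integrins tightly, was above 0 in 12 of 16 mMSCs (75.0%, exact 95% interval 47.6% to 92.7%), with a median of 8.27 FPKM and a highest value of 45.4 in mMSC4. The HL1cm had 0, 12.1, 3.54, 34.2 and 6.18 FPKM, and the controls 25.3 (mMSC-PC) and 35.9 (HL1cm-PC). The difference of 0.15 had no stable sign, being -0.51 without HL1cm1 and 0.77 without HL1cm4.

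Cd82, known as a suppressor of metastasis, was above 0 in 7 of 16 mMSCs (43.8%, interval 19.8% to 70.1%), at up to 20.4 FPKM in mMSC3, and in HL1cm2 alone among the HL1cm, at 9.78. The controls held 12.5 (mMSC-PC) and 11.3 FPKM (HL1cm-PC), so both populations held the transcript at almost one level although most single cells did not show it. The log2 difference between the cells was 0.70.

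The order of the 9 genes in the mMSCs by median was Cd63, Cd9, Tspan31, Cd81, Tspan6, Tspan4, Tspan3, Cd151 and Cd82. Cd63 was above Cd9 in 16 of 16 cells, by a mean log2 gap of 2.69 with an SD of 0.76. Cd81 was above Tspan6 in 14 of 16 cells, with a mean gap larger than its SD of 1.13. The other neighbours differed by less than the SD of their gap between cells. Cd9 was above Tspan31 in 14 cells, Tspan31 above Cd81 in 12, Tspan6 above Tspan4 in 12, Tspan4 above Tspan3 in 9, Tspan3 above Cd151 in 13 and Cd151 above Cd82 in 10. In the HL1cm the order was Cd81, Cd63, Tspan4, Tspan31, Tspan3 and Cd151, followed by Cd9, Cd82 and Tspan6 with medians of 0, and the one gap beyond its SD among genes above 0 was that of Cd81 over Cd63 (3.06, SD 1.53, 5 of 5 cells).

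All 31 tetraspanin genes were then summed in each library, and the share of each gene was taken, a measure that does not change with the scaling of a library. The sum was 3764 to 7197 FPKM in the mMSCs (median 5191) and 520 to 1682 in the HL1cm (median 889). Cd63 held 48.8% to 80.1% of it in the mMSCs (median 72.5%, mMSC-PC 72.8%) and 1.88% to 19.2% in the HL1cm (median 8.54%, HL1cm-PC 12.1%). Cd81 held 1.02% to 9.18% in the mMSCs (median 4.57%, mMSC-PC 9.79%) and 43.7% to 65.6% in the HL1cm (median 57.0%, HL1cm-PC 59.5%). The leading tetraspanin was therefore Cd63 in 16 of 16 mMSCs and Cd81 in 5 of 5 HL1cm, and neither share overlapped between the types. Shares of 1 sum depend on each other, so the high Cd63 of the mMSCs lowers the Cd81 share there. The Cd81 levels themselves overlapped between the types and differed 2.32-fold.

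Cd9 took 5.83% to 28.5% in the mMSCs (median 10.5%) and was second in 12 cells, with Cd81 second in 2 and Tspan31 in 2. Tspan31 held like shares in both types, with medians of 5.91% and 6.98%, although its level was 6.08-fold apart. The lowest Cd63 share, 48.8%, was in mMSC15, which also had the lowest Cd63, the lowest Tspan6 and the highest Cd9 and Tspan31 of the 16 cells. It was 1 of the 2 cells with the fewest genes detected, and the part of that in its levels was not tested. The 9 genes made up 98.3% to 100.0% of all tetraspanin FPKM in the mMSCs (median 99.4%) but 73.9% to 87.5% in the HL1cm (median 81.4%).

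**Figure D2:**
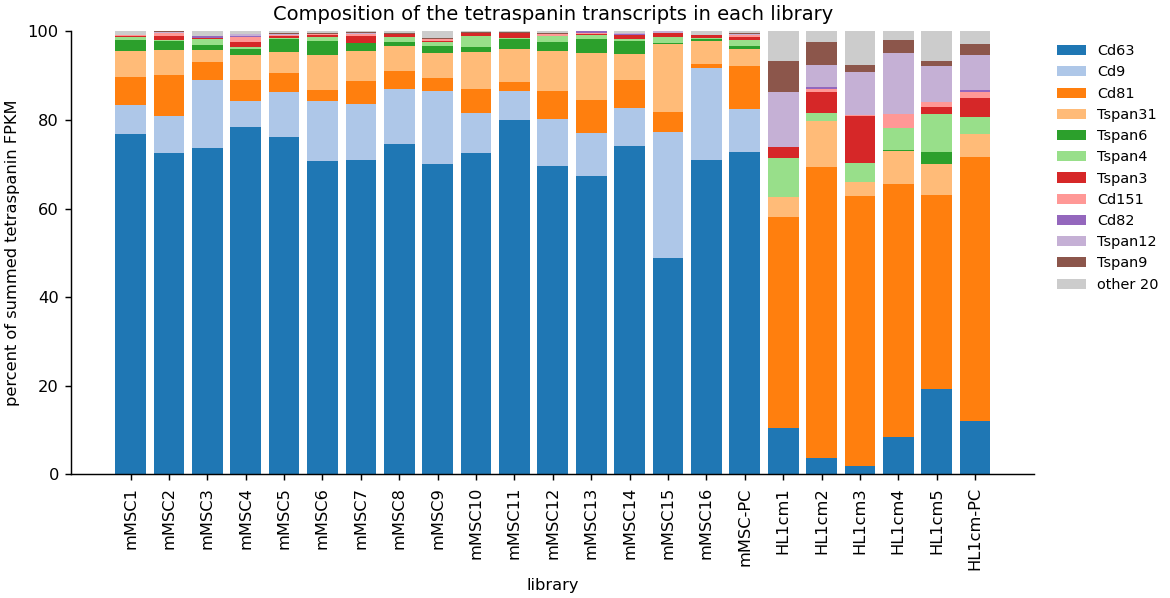
Percent of the summed tetraspanin FPKM held by each gene in each library, as stacked bars from 0 to 100. Cd63 fills the largest block of every mMSC and of mMSC-PC, and Cd81 that of every HL1cm and of HL1cm-PC.

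The remainder in the HL1cm came from genes outside the 9. Tspan12, a co-receptor of Norrin signalling through Frizzled4, held 4.86% to 13.8% of the sum there, with 99.5, 81.8, 85.3, 152 and 42.9 FPKM against at most 18.6 in the mMSCs, where it was above 0 in 6 of 16. It was the third tetraspanin, beside Cd9 and Cd63, without overlap between the types. Tspan9 was lower in the mMSCs by 2.98 on the log2 scale, and Tspan7 was 50.4, 0, 29.8, 1.76 and 0 FPKM in the HL1cm and 0 in all mMSCs. Tspan5 was above 0 in 10 mMSCs, at up to 74.3 FPKM, and at 0 in all HL1cm. Of the 20 tetraspanins compared, 5 were higher in the mMSCs (the 4 above and Tspan5) and 5 lower (Cd81, Tspan7, Tspan9, Tspan12 and Tspan14), which is 25.0% each way beside 21.4% and 21.6% of all genes, so the family as a whole was near the background. A cell expressed 9 to 15 tetraspanins at 1 FPKM or more among the mMSCs (median 12) and 9 to 11 among the HL1cm (median 10). Cd63, Cd9, Cd81, Tspan31, Tspan6 and Tspan3 were there in every mMSC, and Cd63, Cd81, Tspan4, Tspan31, Tspan9 and Tspan12 in every HL1cm. Listed at 0 in all 23 libraries were Cd37, Prph2, Tspan1, Tspan8, Tspan11, Tspan32, Tspan33 and Upk1b.

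The single cells were also set against their own population control, a library of many cells in which fewer cells with a transcript and less RNA per cell cannot be told apart. All 16 mMSCs were below mMSC-PC for Cd63 and Cd81, the case for 13.8% of the 9625 genes detected in mMSC-PC. For Cd81 the control stood at 955 FPKM against a highest cell of 368, and for Cd63 at 7107 against 5034. The housekeeping gene Gapdh was also below mMSC-PC in all 16 mMSCs. Its control stood at 2.73 times the median cell, against 1.92 times for Cd63 and 4.15 times for Cd81. The place of Cd63 below its control therefore depends on the scaling. All 5 HL1cm were below HL1cm-PC for 6 of the 7 genes detected in it, namely Cd63, Cd81, Cd82, Cd151, Tspan3 and Tspan4, the case for 40.5% of 9881 genes. Cd9 and Tspan6 were at 0 in HL1cm-PC. Tspan6 differed in the mMSCs, with 11 of 16 cells above mMSC-PC, and for Tspan31 the control lay in the middle of the cells (359 FPKM against a median of 352). For Cd9, 13 of 16 cells were below the control.

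**Figure D3:**
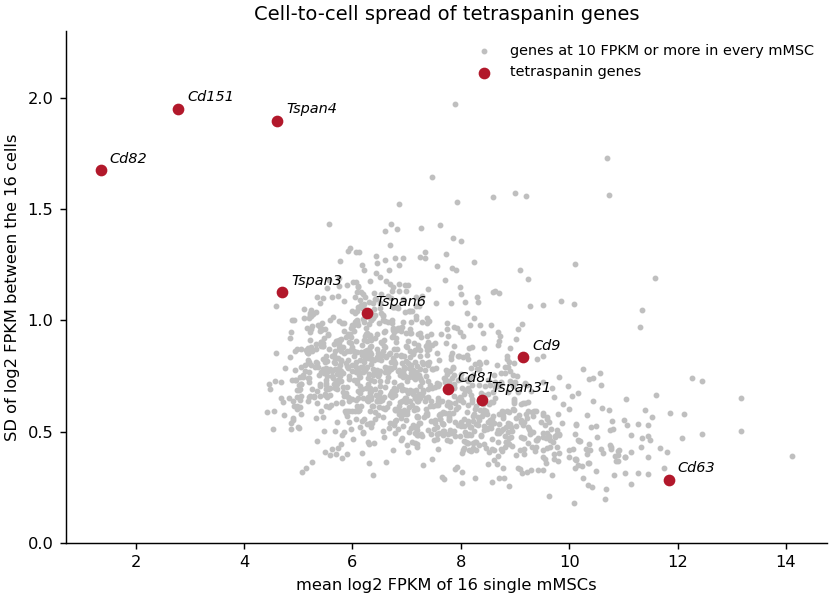
SD of log2 FPKM over the 16 mMSCs against mean log2 FPKM, with tetraspanins named and, in grey, all genes that reached 10 FPKM in each mMSC. Cd63 has an SD of 0.28 near the lower edge of the grey points, while Cd151, Tspan4 and Cd82 have SDs of 1.95, 1.90 and 1.67.

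The spread between mMSCs differed widely among the 9 genes. Cd63 had an SD of 0.28 on the log2 scale, and 10 of the 1279 genes that reached 10 FPKM in each mMSC (0.782%) had a lower one. Those genes were not matched to the high level of Cd63. The value holds for FPKM as deposited, whose sum over all genes ran from 630240 in mMSC13 to 2529610 in mMSC1. The SD of Cd63 at equal sums was not computed. Tspan31 (0.64), Cd81 (0.69) and Cd9 (0.83) lay near the median SD of those genes, 0.71, and Tspan6 was wider at 1.03. The 4 low genes, which did not reach 10 FPKM in each mMSC, had SDs of 1.13 (Tspan3), 1.67 (Cd82), 1.90 (Tspan4) and 1.95 (Cd151). Cells at 0, set to 1 FPKM, enter the SDs of Cd82 (above 0 in 7 of 16 cells), Cd151 (12) and Tspan4 (15). The median over the 9 was 1.03, but 0.77 with a limit of 10 FPKM and 0.77 without mMSC9 and mMSC15.

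The 9 genes did not move as one set over the 16 mMSCs. Of 36 pairs, 15 had a positive and 21 a negative Pearson r of log2 FPKM, and 1 was beyond 0.5 in size, that of Tspan3 with Tspan4 at -0.54. The highest were Cd9 with Tspan31 at 0.47 and Cd9 with Cd63 at 0.43, and Cd9 with Tspan6 was at -0.45. Cells of 1 cell type are not independent cultures, and the libraries differ in genes detected. All pairs share the scaling of their library, so these values are descriptions. Without mMSC9 and mMSC15 the r of Cd9 with Cd63 was 0.74 and that of Cd9 with Tspan31 was 0.26. With libraries scaled to the same sum, Cd9 with Tspan31 was 0.68, Cd9 with Cd63 0.64, Tspan3 with Tspan4 -0.32 and Cd9 with Tspan6 0.03. Cd9 with Cd63 was 0.23 at equal Gapdh. By rank correlation (Spearman rho) the largest in size was Tspan3 with Tspan6 at -0.60, where the Pearson r was -0.39. Tspan3 with Tspan4 had a rho of -0.47. The pairs that stood out thus changed with the scaling and with the measure of correlation.

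**Figure D4:**
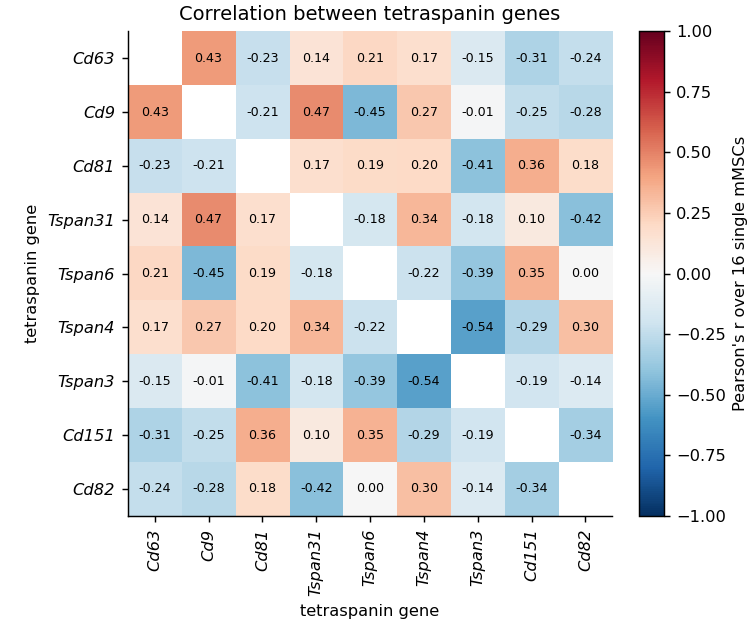
Pearson r of log2 FPKM over 16 mMSCs (values under 1 set to 1) for each pair of the 9 tetraspanins, printed in each square, with red for positive and blue for negative values. The largest in size is that of Tspan3 with Tspan4, at -0.54.

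The genes whose pattern over the 16 mMSCs was most like each tetraspanin were sought among the 4679 that reached 1 FPKM in 12 of these cells or more. For Cd9 they were Rbx1 (Pearson r 0.81), S100a4 (0.76) and Rnf13 (0.74), and for Cd63 they were Rps12 (0.76), Lpgat1 (0.75) and Gm2a (0.74). Irf7 (0.80) came first for Cd81, Psme1 (0.84) and Thbs2 (0.80) for Tspan31, and Obfc2b (0.84) and Ero1l (0.82) for Tspan6. Gdap2 (0.82) was first for Tspan3, Tmem66 (0.79) for Tspan4, Tenc1 (0.77) for Cd151 and Gpx1 (0.77) for Cd82. All of these were picked as the highest among 4679 values over 16 cells, and no other tetraspanin was among the 3 most like genes of any of the 9.

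Partner genes were taken from a list of 42 genes, of which 36 could be compared. In the mMSCs 14 were higher, beside 21.4% of all genes, and 3 lower, beside 21.6%. Their median log2 difference was 0.74, beside 0.08 over all genes. The list includes Cd44, also a mesenchymal marker above, and Tspan5 and Tspan14, already counted in the family. Of the partners of Cd63, Timp1, a metalloprotease inhibitor that binds Cd63 at the cell surface, had a median of 5492 FPKM in the mMSCs against 26.1 in the HL1cm, and of 3 lysosomal membrane proteins Lamp1 and Lamp2 were 1.81 and 1.96 higher on the log2 scale. The third, Scarb2, was within 2-fold between the cells (-0.95) and lower in mMSC-PC than in HL1cm-PC (-1.42), where Lamp1 (1.15) and Lamp2 (2.37) were higher. Of 10 genes of the multivesicular body, where Cd63 is sorted into vesicles, 3 were higher and none lower, namely Sdcbp (syntenin, 1.33), Pdcd6ip (Alix, 1.02) and Chmp4b (1.85), beside 21.4% of all genes. None of these 3 reached 2-fold between the population controls, with Sdcbp at -0.66, Pdcd6ip at 0.38 and Chmp4b at 0 FPKM in both. Tsg101, of the same list, was short of 2-fold between the cells (-0.74) but lower in mMSC-PC than in HL1cm-PC (-1.58). Among partners at the plasma membrane, Hbegf, which Cd9 binds, was 3.07 higher. Mmp14 was at 3.14 to 94.3 FPKM in the mMSCs and at 0 in all HL1cm, though at 9.16 in HL1cm-PC. Cd44 was at 103 to 588 FPKM in the mMSCs against at most 1.94 in the HL1cm. Both EWI proteins, Igsf8 and Ptgfrn, the closest partners of Cd9 and Cd81, were within 2-fold between the cells, but most cells were at 0. Igsf8 was above 0 in 4 of 16 mMSCs and 1 of 5 HL1cm, and Ptgfrn in 5 mMSCs and 0 HL1cm. Between the population controls, Igsf8 was lower in mMSC-PC (-1.79) and Ptgfrn higher (1.39).

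Of 9 integrin genes 6 could be compared, and Itgb1 (2.03) and Itgav (2.85) were higher in the mMSCs. Itga7, a laminin-binding chain of muscle, was lower, at 0 in every mMSC against up to 17.8 FPKM in the HL1cm. Between the population controls Itgav (3.10) and Itga5 (2.13) were higher in mMSC-PC, as was Itga6. Itga5 and Itga6 were within 2-fold between the cells, Itga5 at -0.48. Itgb1 (0.80) and Itga7 (-0.75) were short of 2-fold between the controls. Itga7 was at 6.02 FPKM in mMSC-PC and 10.1 in HL1cm-PC. The interferon-induced membrane protein Ifitm2 was 1.37 higher in the mMSCs, and Ifitm3 was at 1949 to 5928 FPKM there and at 0 in 4 of 5 HL1cm. Among Adam10 and the tetraspanins that carry it, Tspan5, at 0 in all HL1cm, was higher, Tspan14 lower (-1.33) and the other 4 compared were within 2-fold. Between the population controls Tspan5 was higher in mMSC-PC (2.05), Tspan14 was within 2-fold (-0.17) and Tspan15 was lower (-1.88). Epcam was the third lower partner, at 0 in all mMSCs and up to 14.2 FPKM in the HL1cm. Cr2, Cldn1 and Tspan33 were at 0 in all 23 libraries. The share of partners higher in the mMSCs is read beside the 21.4% of all genes, and no test of the list was made.

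**Figure D5:**
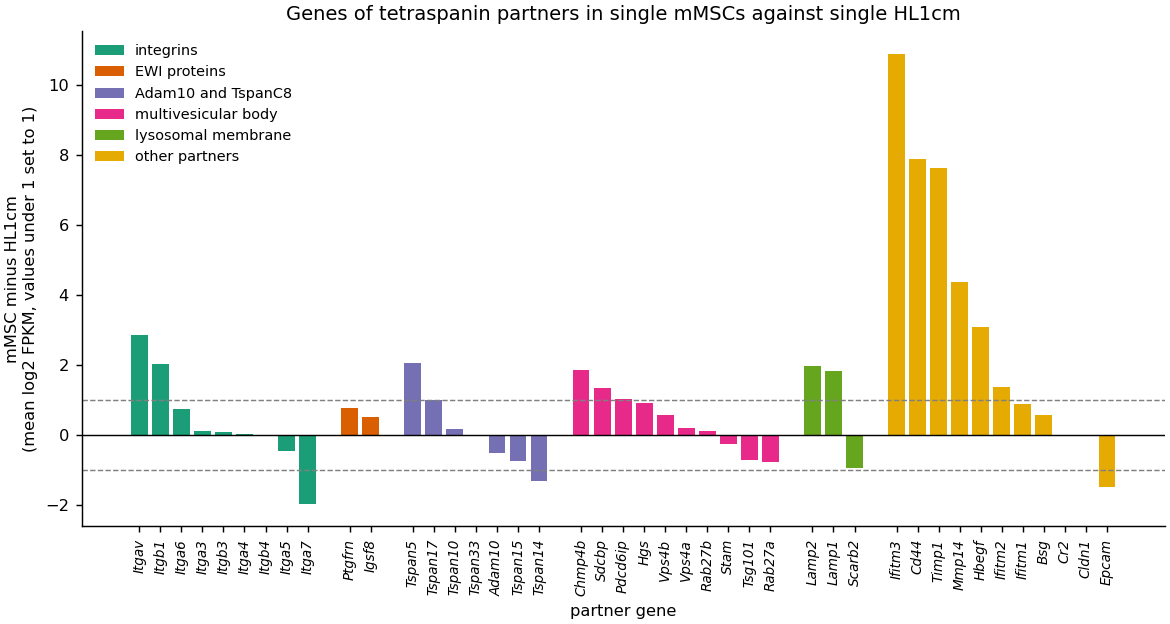
Difference of mean log2 FPKM between mMSCs and HL1cm as a bar for each of the 42 partner genes, coloured by kind of partner, with dashed lines at 2-fold. More bars pass the upper line (14) than the lower one (3), beside 21.4% and 21.6% of all genes. The height of a bar depends on the limit of 1 FPKM where a group is at 0.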

How the data were processed

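The authors aligned the reads to mm10 with TopHat2 2.0.12 and made FPKM values with Cufflinks 2.2.1, per the labels and the study's methods. The deposited FPKM table was used as it is, with 1 column per library. Whole reads could not be recovered from it, since low values of pairs of libraries showed no common step. The fullest bin of their ratios held 1.67% to 2.07% of low genes. The read totals that the study reports for its cells were not used. No count model was used, and precision was judged from the genes detected.

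Values under 1 FPKM, the limit of detection of the study, were set to 1 before log2. Genes that reached 1 FPKM in 2 or more of the 21 single cells were compared (11850), and a difference of 2-fold or more was counted. Cells are not replicates, so there are no p-values. Intervals for shares of cells are exact (Clopper-Pearson, 95%). Shares of the family used the symbols of all tetraspanins. Genes named with values are the 9, those of fixed family and partner lists that reached 1 FPKM in 8 mMSCs or 3 HL1cm, marker genes, and the 3 most like genes by Pearson r. Cdk4, Chid1 and the values of Ifitm3 and Col1a1 in HL1cm5 were added after values were seen. A further gene of the partner list is not reported here. The members and lists were chosen with earlier results of these data known. Exon overlaps come from GENCODE M21 and promoters from RefSeq, in which all 9 genes matched. The alternatives changed the limit, the scaling, the summary, the cells included, the filter and the fold. Only the 2-fold call was tested on simulated data, for well-detected genes with shifts far larger than 2-fold. The other steps were not simulated. The steps ran in Python 3.11.15 (scipy 1.17.1, pandas 2.3.3, numpy 2.4.6, and matplotlib 3.10.9 for plots).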

Additional observations from a re-analysis of the deposited data

Results flagged for a closer look

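The log2 levels of the 5 HL1cm, with values under 1 FPKM set to 1, made 8 sets, 1 for each tetraspanin above 0 in any HL1cm. On this log2 scale 3 sets had a cell standing apart by Dixon's criterion. Chance gives about 1 in 20 for continuous values, but that rate does not hold for Cd82 and Tspan6, where 4 and 3 cells are at 0 and where, for Cd82, any value above 0 would stand apart. They were Cd63 in HL1cm3, low at 16.7 FPKM with the other cells at 62.8 to 100.0, Cd82 in HL1cm2, at 9.78 FPKM with the other 4 at 0, and Tspan6 in HL1cm5, at 15.2 FPKM with the next at 1.20.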

How the results depend on the processing

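Of 251 recomputed values, 21 moved beyond a set limit. The limit was 1.5 times for counts and 1 SD between cells for differences and shares. For r it was the standard error of Fisher's z, and for the median SD the range over leaving out a cell. No difference past 2-fold turned its sign, though smaller moves also ended calls. Cd9, Cd63, Tspan6 and Tspan31 were higher in the mMSCs under every alternative, and Tspan3 joined them at equal sums, at equal Gapdh and without HL1cm3, Cd82 with mean FPKM, and both with a limit of 0.1 FPKM and without HL1cm2. The count of lower tetraspanins (1, Cd81) was 2 with a limit of 0.1 FPKM, with median ratio scaling or without mMSC9 and mMSC15, where Tspan4 joined, and 0 at equal sums of FPKM, at equal Gapdh or at 4-fold. Without HL1cm2 the lower gene was Tspan4. Leaving out single HL1cm gave 2 to 4 tetraspanins without overlap, 4 of them without HL1cm5. At equal Gapdh 3 were lower in mMSC-PC, against 0, and 3 higher, against 4. The median SD of 1.03 was 1.17 at equal Gapdh and 1.26 at equal sums. It was 0.77 with a limit of 10 FPKM and 0.77 without mMSC9 and mMSC15. Over all genes, 2538 higher became 882, 3815 and 1039 with limits of 10 and 0.1 FPKM and at 4-fold, and 2556 lower became 911 with a limit of 10 and 1099 at 4-fold. The median of all genes, 0.08 on the log2 scale, was 0.24 at equal sums, 0.22 at equal Gapdh and -0.06 with median ratio scaling. Signs were not stable for Cd151 (the same in 9 of 14 alternatives), Tspan3 (12) and Cd82 (13). No paired analysis was possible because replicate numbers only name cells and no test was made. Values near 1 FPKM are limited by depth, which was not taken into account.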
